A study of Mus musculus with 8 samples.

Results

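The WC and WCS mutants of a MyoD chimera were compared with the chimera itself across all genes, in 3 of the 8 libraries of the series. The 3 libraries were picked by their labels, with earlier results of these data known. They were P19 cells carrying the WC mutant, the WCS mutant or the unmutated chimera. All were without a label for multiplicity of infection (MOI, the number of virus particles given per cell). P19 is a mouse line of embryonal carcinoma cells, which can form neurons or muscle in culture. Each culture was infected with a lentivirus in the presence of polybrene and later moved to Neurobasal medium with B27, a medium made for neurons, so all groups, GFP included, shared that neuronal medium. The chimera is MyoD carrying the basic helix-loop-helix (bHLH) domain of NeuroD2 in place of its own, and WC and WCS are mutants of it whose changed residues the labels do not define. The other libraries used here are WCS and chimera at MOI 100, MyoD, NeuroD2 and GFP. The labels do not give the MOI of the 6 libraries with no such label or the promoter that drives each coding sequence. Both mutants held almost no RNA of the muscle genes Myog and Musk, which the chimera carried, and held more RNA of neuronal genes such as Dcx and Scrt1.

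Each group had 1 library, so no test of groups was possible, no p-value is given and no difference has a replicate check. A gene was called higher or lower if 2 libraries differed by 4-fold or more on the log2(CPM + 0.5) scale and the higher of them held 5 CPM or more. CPM here are gene counts brought to a common library size, and are comparable for 1 gene between libraries but not between genes of different length. Each ratio below is one of CPM, and its exact (Clopper-Pearson) 95% interval covers counting error only. Library totals were 31381610 counts for WC, 29720496 for WCS and 26410500 for the chimera, within the 26410500 to 43984066 of all 8. The lower limit set by 3 counts was 0.0963 CPM in WC, 0.102 in WCS and 0.113 in the chimera.

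MyoD and NeuroD2 are bHLH transcription factors that pair with E-proteins and bind E-boxes, short DNA sites with the letters CANNTG. MyoD is known for turning many cell types into skeletal muscle, through regulators such as myogenin (Myog) and then the genes of the contractile apparatus, and NeuroD2 for driving neuronal differentiation. Outside the bHLH domain, MyoD has a conserved stretch with a tryptophan that is known to contact Pbx and Meis partner proteins.

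The promoters of 5 genes on which the comparison turns are shown first, since they are the stretches of DNA before the start of genes among those furthest apart. Myog and Musk were lower in both mutants, and Robo3, Ina and Dcx were higher. Each is the 250 bases before the start on the gene's own strand, 5′ to 3′, from RefSeq on GRCm38.p6, with every CANNTG in capitals.
Myog: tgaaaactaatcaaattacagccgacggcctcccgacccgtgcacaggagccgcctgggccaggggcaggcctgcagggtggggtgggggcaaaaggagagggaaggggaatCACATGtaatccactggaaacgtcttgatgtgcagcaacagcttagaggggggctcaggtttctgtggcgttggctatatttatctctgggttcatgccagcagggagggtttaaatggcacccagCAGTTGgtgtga
Musk: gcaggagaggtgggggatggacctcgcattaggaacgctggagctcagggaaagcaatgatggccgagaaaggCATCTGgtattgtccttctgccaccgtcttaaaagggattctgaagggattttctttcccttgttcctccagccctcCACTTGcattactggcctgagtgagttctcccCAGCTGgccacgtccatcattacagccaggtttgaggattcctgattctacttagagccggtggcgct
Robo3: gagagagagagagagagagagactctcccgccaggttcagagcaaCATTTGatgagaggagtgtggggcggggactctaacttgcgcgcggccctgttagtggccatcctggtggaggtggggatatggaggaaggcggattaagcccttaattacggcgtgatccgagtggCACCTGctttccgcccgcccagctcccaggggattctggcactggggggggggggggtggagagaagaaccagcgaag
Ina: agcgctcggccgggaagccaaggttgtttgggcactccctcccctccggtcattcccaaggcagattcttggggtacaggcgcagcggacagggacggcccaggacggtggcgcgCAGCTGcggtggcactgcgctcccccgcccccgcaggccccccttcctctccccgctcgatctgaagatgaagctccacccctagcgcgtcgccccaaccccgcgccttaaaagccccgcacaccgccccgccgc
Dcx: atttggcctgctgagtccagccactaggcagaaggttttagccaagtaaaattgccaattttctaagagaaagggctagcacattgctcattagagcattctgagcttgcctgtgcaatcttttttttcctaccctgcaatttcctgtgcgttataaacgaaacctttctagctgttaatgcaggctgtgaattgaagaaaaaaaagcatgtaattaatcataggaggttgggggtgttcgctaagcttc
Myog lies at chr1:134289754-134290003 on the plus strand and Musk at chr4:58285712-58285961 on the plus strand. Robo3 lies at chr9:37433176-37433425 on the minus strand, Ina at chr19:47014431-47014680 on the plus strand and Dcx at chrX:143933220-143933469 on the minus strand. The Myog window held CACATG and CAGTTG, whose first bases were at -138 and -12 from the start. The Musk window held CATCTG at -177, CACTTG at -100 and CAGCTG at -68. Robo3 had CATTTG at -205 and CACCTG at -78, Ina had CAGCTG at -135, and the Dcx window held none of these letters.

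Over all measured genes, 57.7% of 14066 promoter windows of this length held at least 1 CANNTG on either strand. The share was 73.5% of 83 windows of the genes lower in both mutants and 63.6% of 55 windows of the genes higher in both. CAGCTG, a form of the E-box that reads the same on both strands, was in 28.9% of windows of the lower genes, 12.7% of the higher genes and 12.5% of all. The letters CAGGTG, which read CACCTG on the opposite strand, was in 24.1% of the lower, 21.8% of the higher and 15.9% of all windows. The letters CAGATG, which read CATCTG on the opposite strand, was in 15.7% of the lower, 5.45% of the higher and 9.96% of all. Each of these 3 forms is a subset of CANNTG. A gene can have more than 1 start, 61 of the 84 lower and 40 of the 61 higher genes with a symbol had a window in the table, and these letters mark a match and not a bound site.

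The delivered factors were checked through their own genes. Myod1 had 106 CPM in WC, 77.3 in WCS and 116 in the chimera, against 857 in WCS at MOI 100, 555 in the chimera at MOI 100, 296 in MyoD, 0.804 in NeuroD2 and 0.681 in GFP. Neurod2 had 15.8 CPM in WC, 14.6 in WCS and 13.8 in the chimera, against 130 in WCS at MOI 100, 73.3 in the chimera at MOI 100, 0 in MyoD, 180 in NeuroD2 and 2.5 in GFP. Both genes were read in every library of a chimera or mutant, and Myod1 in WC was 1.09-fold under the chimera and in WCS 1.5-fold under it (95% intervals 1.04 to 1.15 and 1.42 to 1.58). Gene counts mix reads of the virus-borne sequence with those of the endogenous gene and do not show the mutations. The chimera and mutants carry only part of each factor, so these CPM do not compare their dose with the MyoD and NeuroD2 libraries. As a check of the cell line, 22 measured pluripotency genes summed to 1671 CPM in WC and 1635 in WCS, against 1325 in the chimera, and to 3323 in GFP. The sum was below GFP in all 3 compared libraries.

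A group of RNAs set libraries apart in a way that did not follow the mutants at MOI 100. Rn7s6, annotated as a miscellaneous RNA, had 13.0 CPM in WC and 14.4 in WCS, against 0.565 in the chimera, while WCS and chimera at MOI 100 had 1.28 and 1.21, MyoD 13.5, NeuroD2 0.594 and GFP 16.3. The libraries thus fell into a high set of WC, WCS, MyoD and GFP and a low set of the chimera, NeuroD2 and both MOI 100 libraries. The labels name an RNeasy kit or Trizol for RNA extraction without saying which library had which, and oligo-dT selection for all. The part of this split in the results below was not tested, and counts over protein-coding genes alone stand beside those over all genes.

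Of 15547 measured genes, those reaching 1 CPM in some library, 73 were called higher in WC than in the chimera (0.47% of those measured) and 88 lower (0.566%). In WCS, 92 were called higher (0.592%) and 117 lower (0.753%). Both mutants passed together for 66 higher genes (0.425%) and 85 lower genes (0.547%), and both comparisons used the same chimera library. Restricted to protein-coding genes, an alternative chosen after seeing the data, these counts were 54 higher and 80 lower. That restriction still includes Lars2 and Lefty1, which parted the libraries the same way as Rn7s6, and it also drops 5 higher genes that have no annotated class. With a pseudocount of 2 CPM in place of 0.5 they were 37 higher and 53 lower. The median ratio over all measured genes was 0.01 on the log2 scale in each mutant. The list counts below are to be read against 0.425% higher and 0.547% lower in both mutants over all measured genes. At those shares, lists as short as these would mostly hold no called gene.

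The heat map of the genes furthest apart shows their level in every library.

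**Figure D1:**
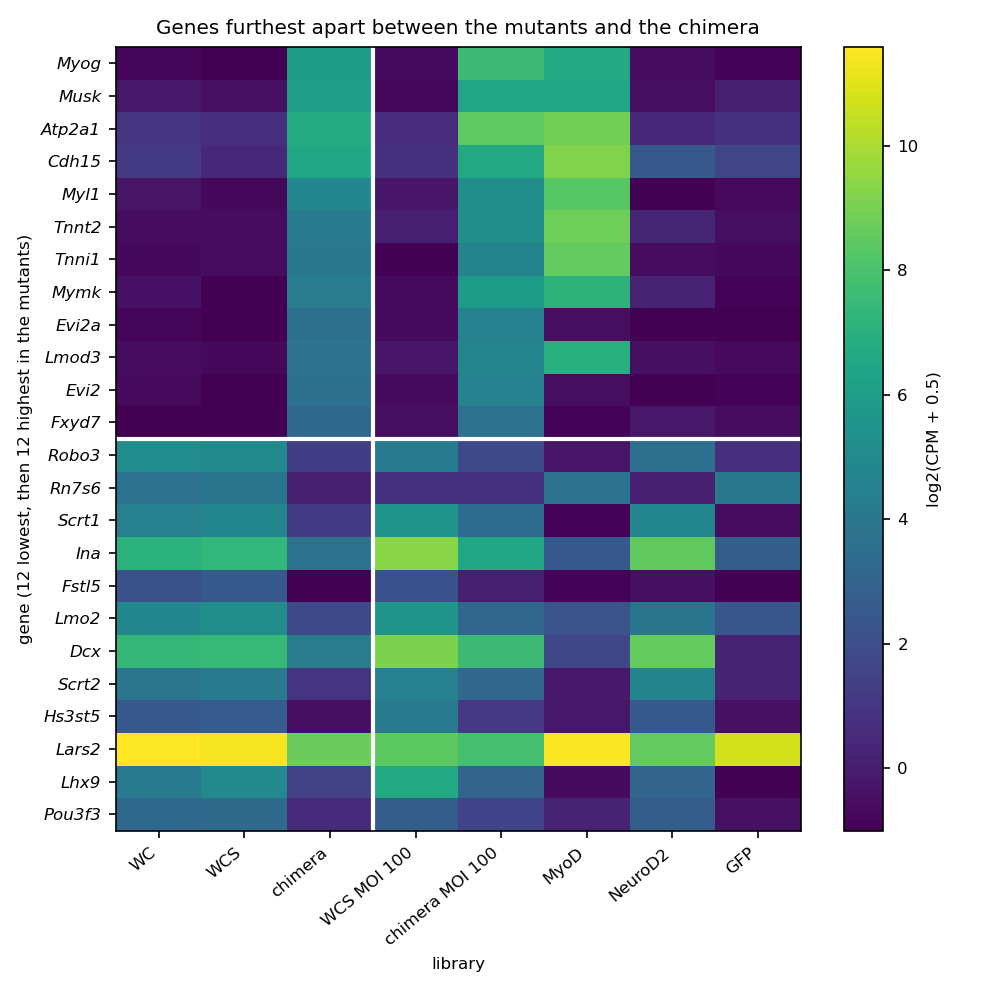
Level of the 12 lowest and the 12 highest genes of both mutants against the chimera, ranked by the less extreme end of the interval, in all 8 libraries (columns), as log2(CPM + 0.5) in colour. The white lines part the lower from the higher genes and the 3 compared libraries from the others. Myog is dark in WC, WCS and WCS at MOI 100 and bright in the chimera at both MOI labels and in MyoD, while Ina is bright in WC, WCS, both MOI 100 libraries and NeuroD2.

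Among muscle regulators, Myog, the factor that carries myoblasts into differentiation, had 0.0642 CPM in WC (2 counts) and 0 in WCS, against 58.2 CPM in the chimera (1545 counts). The ratio was 907-fold in WC (95% interval 251 to 7494) and at least 571-fold in WCS, both lower than the chimera. Both mutants were near the level of GFP, 0.0486 CPM, and the chimera was below MyoD, 95.1 CPM.

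Smyd1, a muscle histone methyltransferase, had 1.32 CPM in each mutant against 50.0 in the chimera, a ratio of 38.0-fold for WC (27.9 to 53.2) and of 37.8-fold for WCS (27.5 to 53.4), both lower. Pitx3, a homeodomain factor also expressed in muscle, had 0.417 CPM in WC and 0.136 in WCS against 8.33 in the chimera. Mef2c, a partner of MyoD on muscle genes, had 5.14 CPM in WC and 5.10 in WCS against 26.0 in the chimera, with 392 in MyoD. In MyoD, Smyd1 had 339 CPM and Pitx3 64 CPM, so the chimera was below MyoD in all 3 genes and the mutants lower again.

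Pax7, a factor of muscle progenitors, was called lower as well, with 0.738 CPM in WC and 0.815 in WCS against 5.35 in the chimera. That level is just over the 5 CPM of the rule, and neither MyoD nor NeuroD2 raised Pax7 over GFP by the rule. Rbm20, a splicing factor of titin, passed in WCS only, at 18.4 CPM against 94.3, while WC had 26.8 CPM. The other early regulators were not called. Pax3, a progenitor factor, had 9.11 CPM in WC and 7.24 in WCS against 22.4 in the chimera. Myf5 and Myf6, the other MyoD relatives, had at most 3 counts in each of the 3 libraries, too few to show a difference.

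Of the 24 measured myogenic regulators, 6 were lower in both mutants and none was higher, and their median log2 ratio was -1.08 in WC and -1.16 in WCS. Vgll2, a muscle cofactor, had 0.0963 CPM in WC and 0.102 in WCS against 2.56 in the chimera and so missed the 5 CPM of the rule.

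Myoblast fusion and adhesion genes had 2 of 13 members lower in both mutants. Mymk (myomaker), a membrane protein needed for fusion, had 0.257 CPM in WC and 0 in WCS against 19.9 in the chimera, a ratio of 77.3-fold for WC (39.0 to 180) and at least 195-fold for WCS, both lower. Cdh15 (M-cadherin), an adhesion protein of myoblasts, had 1.73 CPM in WC and 0.849 in WCS against 88.4 in the chimera, 51.0-fold (39.0 to 68.1) and 104-fold (70.4 to 161) lower. The list's median was -0.30 in WC and -0.49 in WCS.

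At the neuromuscular synapse, Musk, the receptor kinase that organises the muscle side of the junction, had 0.385 CPM in WC and 0.238 in WCS against 65.0 in the chimera. WC was 169-fold below the chimera (96.3 to 327) and WCS 273-fold (132 to 681), with 86.0 CPM in MyoD and 0.535 in GFP. The fetal acetylcholine receptor subunit Chrng had 0.449 CPM in WC and 0.476 in WCS against 16.2 in the chimera, and the subunit Chrnb1 had 1.16 and 1.29 CPM in WC and WCS against 6.82 in the chimera.

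The subunit Chrnd had 0 counts in both mutants against 71 in the chimera, a difference of at least 27.8-fold for WC and 26.2-fold for WCS, but at 2.67 CPM in the chimera it stayed under the level the rule asks for. Rapsn, the scaffold that clusters the receptors, had 0.417 CPM in WC and 0.408 in WCS against 2.67 in the chimera. Agrin (Agrn), the nerve-borne ligand of this system, was 1.35-fold higher in WC (1.30 to 1.40) and 1.44-fold higher in WCS (1.39 to 1.5).

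Acetylcholinesterase, Ache, went the other way from the 3 called receptor genes, with 14.6 CPM in WC and 13.8 in WCS against 2.45 in the chimera, or 5.95-fold higher (4.58 to 7.84) and 5.63-fold higher (4.33 to 7.44). It is an enzyme of both neurons and muscle, with 27.0 CPM in MyoD, 18.5 in NeuroD2 and 0.389 in GFP. Of the 11 measured junction genes, 3 were lower and 1 higher in both mutants, and the median was -1.41 for WC and -1.46 for WCS.

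Sarcomere genes were the list with the lowest medians, -2.33 in WC and -2.41 in WCS, and 23 of 49 measured members were lower in both mutants with none higher. Their summed level was 345 CPM in WC and 231 in WCS, against 1806 in the chimera, and in the other libraries 219 in WCS at MOI 100, 2738 in the chimera at MOI 100, 19322 in MyoD, 211 in NeuroD2 and 819 in GFP. In both mutants the sum was thus below that of GFP.

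Within the sarcomere, the light chain Myl1 had 0.289 CPM in WC and 0.102 in WCS against 28.5 in the chimera, 98.6-fold (51.7 to 216) and 279-fold (95.3 to 1358) lower. The troponin Tnnt2 had 0.160 CPM in WC and 0.170 in WCS against 18.6 in the chimera, and the troponin Tnni1 had 0.0963 and 0.170 against 15.8. Lmod3, which nucleates thin filaments, had 0.160 CPM in WC and 0.102 in WCS against 13.5 in the chimera. All 4 were at fewer than 10 counts in each mutant.

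Klhl41, a ubiquitin ligase adaptor of the sarcomere, had 0.802 CPM in WC and 0.611 in WCS against 39.8 in the chimera. Among genes chosen after their values were seen, Myh3, the embryonic myosin heavy chain, had 5.78 CPM in WC and 5.16 in WCS against 132 in the chimera. Actc1, an actin of heart and fetal muscle, had 34.6 CPM in WC and 19 in WCS against 481 in the chimera, with 5163 in MyoD and 42.3 in GFP. Reads of the clustered myosin heavy chains and of the muscle actins can be shared between near-identical genes in a way that could not be checked.

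Desmin (Des), the muscle intermediate filament, was called in WCS only, with 7.90 CPM in WC and 4.65 in WCS against 30.3 in the chimera. It also had 22.6 CPM in GFP, so both mutants lay below GFP.

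For calcium handling and metabolism, 2 of 25 measured genes were lower in both mutants, against 0.547% of all measured genes. In WCS 4 were lower, against 0.753% of all. Atp2a1, the calcium pump of fast muscle, had 1.41 CPM in WC and 1.19 in WCS against 111 in the chimera, 78.8-fold (58.5 to 109) and 93.5-fold (67.1 to 135) lower. Ryr1, the calcium release channel, had 2.86 CPM in WC and 2.79 in WCS against 57.5 in the chimera. The list's medians were -1.13 in WC and -1.39 in WCS. The dystrophin complex had no called member among 12 and medians of -0.11 and -0.12, and Dmd itself had 78.8 CPM in WC and 80.2 in WCS against 77.9 in the chimera.

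The plot of list medians sets these groups beside the neuronal ones. With a pseudocount of 2 CPM in place of 0.5, 21 of the 54 medians moved by over 1.5 times. Sarcomere genes then had -1.32 for WC and -1.59 for WCS, neuromuscular synapse genes -0.76 and -0.78, and homeodomain factors 0.71 and 0.62.

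**Figure D2:**
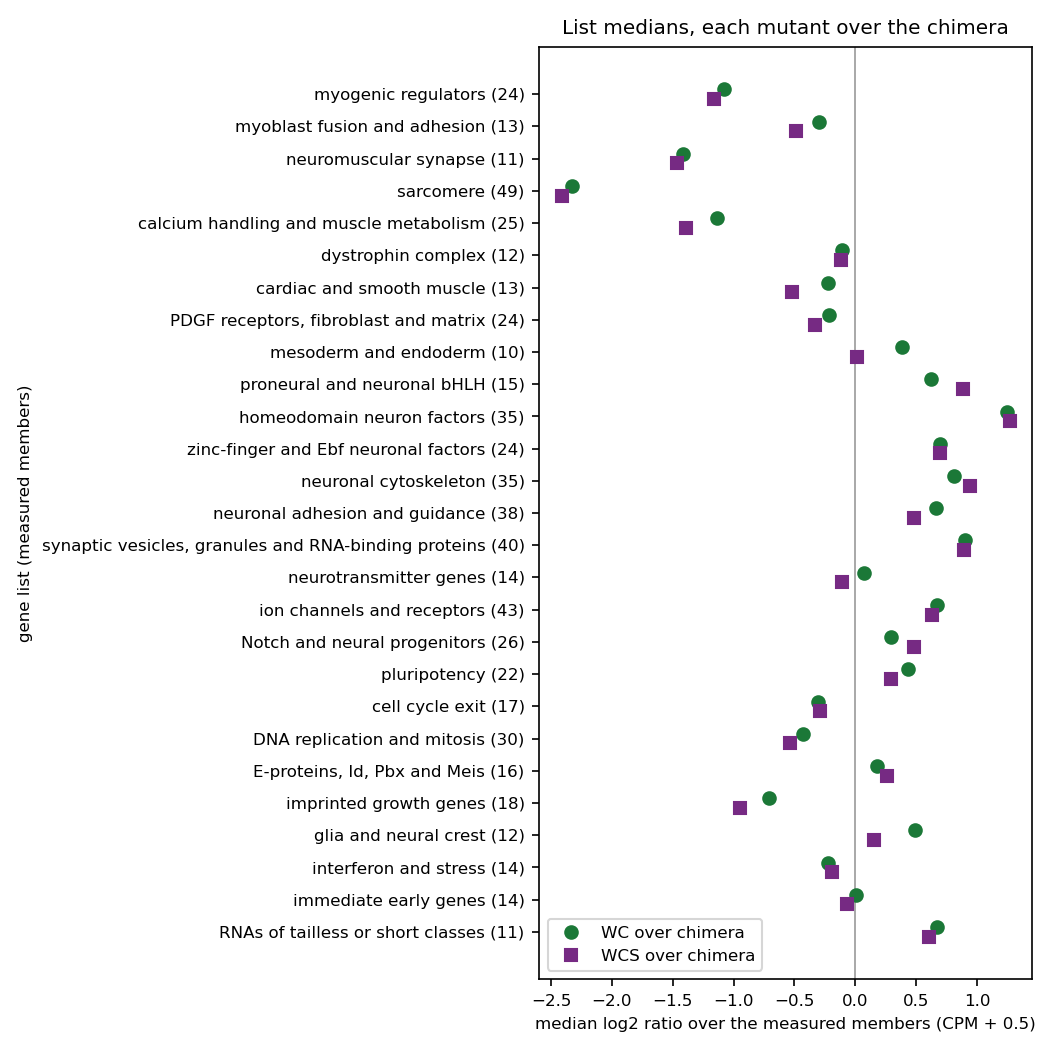
Median log2 ratio over the measured members of each gene list, WC over chimera (green circles) and WCS over chimera (purple squares); the grey line marks no difference and the number in brackets is the count of measured members. Sarcomere genes lie furthest left, at -2.33 and -2.41, and homeodomain neuron factors furthest right, at 1.25 and 1.27.

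Neuronal transcription factors stood at the other end. Scrt1, a zinc-finger repressor of young neurons, had 21.7 CPM in WC and 26.6 in WCS against 1.73 in the chimera, 12.5-fold (9.28 to 17.3) and 15.4-fold (11.4 to 21.2) higher. Its relative Scrt2 had 15.1 CPM in WC and 16.9 in WCS against 1.43 in the chimera. Myt1, a zinc-finger factor of neuronal differentiation, had 13.5 CPM in WC and 19.8 in WCS against 1.66 in the chimera. NeuroD2 gave 28.3, 24.6 and 33.0 CPM for Scrt1, Scrt2 and Myt1, against 0.170, 0.705 and 0.146 in GFP, so the mutants lay nearer to NeuroD2 than the chimera did.

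The zinc-finger and Ebf factors had 3 of 24 measured members higher in both mutants, against 0.425% of all measured genes. None was lower, and the median was 0.70 for each mutant.

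Homeodomain factors had 5 of 35 measured members higher in both mutants, against 0.425% of all measured genes. In WCS 7 were higher, against 0.592% of all, and none was lower in either mutant. The WC median was 1.25 and the WCS median 1.27. Lhx9, a LIM factor of dorsal and diencephalic neurons, had 18.6 CPM in WC and 30.6 in WCS against 2.22 in the chimera, 8.37-fold (6.4 to 11.1) and 13.8-fold (10.6 to 18.3) higher, above the 8.18 CPM of NeuroD2. Lhx5 had 18.5 CPM in WC and 25.3 in WCS against 2.49 in the chimera. Lhx1, a LIM factor of both early mesoderm and interneurons, had 12.3 and 12.1 CPM in WC and WCS against 1.62 in the chimera.

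Pou3f3, a POU factor of the developing brain, had 8.95 CPM in WC and 9.82 in WCS against 0.942 in the chimera, 9.51-fold (6.31 to 14.9) and 10.4-fold (6.92 to 16.4) higher. Pou3f3 reached 6.04 CPM in NeuroD2, against 0.243 in GFP.

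Proneural and neuronal bHLH genes had no member called in both mutants, beside 0.425% of all measured genes called higher. A list of 15 genes is too short to set apart from that share. Their medians were 0.63 in WC and 0.88 in WCS, and 14 of 15 measured members lay above 0 in each. Neurod1, a close relative of NeuroD2, had 35.9 CPM in WC and 39.8 in WCS against 38.6 in the chimera, with 111 in NeuroD2 and 0.608 in GFP. Nhlh1, a bHLH gene of newly made neurons, had 73.0 CPM in WC and 72.5 in WCS against 39.1 in the chimera, 1.87-fold (1.73 to 2.01) and 1.85-fold (1.72 to 2.0) higher.

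Olig2, a bHLH factor of motor neuron and oligodendrocyte progenitors, had 33.7 CPM in WC and 39.8 in WCS against 9.49 in the chimera, which passed in WCS only. Neurog2, a proneural factor, had 1.54 CPM in WC and 1.56 in WCS against 0.113 in the chimera, a difference of 13.6-fold and 13.8-fold that rests on 3 counts in the chimera (intervals 4.39 to 68.4 and 4.44 to 69.5). Apart from Neurog2 with its few counts, the bHLH members thus ranged from no clear difference to a few-fold higher.

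The neuronal cytoskeleton had 4 of 35 measured genes higher in both mutants, against 0.425% of all measured genes, and none lower. Its WC median was 0.81 and its WCS median 0.94. Doublecortin, Dcx, a microtubule-binding protein of migrating neurons, had 167 CPM in WC and 171 in WCS against 19.1 in the chimera, 8.76-fold (8.00 to 9.62) and 8.97-fold (8.19 to 9.85) higher. Ina, the neurofilament alpha-internexin, had 132 CPM in WC and 163 in WCS against 12.9 in the chimera, 10.2-fold (9.14 to 11.4) and 12.6-fold (11.3 to 14.1) higher. Neither mutant reached the level of NeuroD2, which was 397 CPM for Dcx and 362 for Ina, against 0.681 and 5.98 in GFP.

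Mapt, the microtubule protein tau, had 18.9 CPM in WC and 21 in WCS against 2.86 in the chimera, and Stmn4 had 49.7 and 46.5 CPM in WC and WCS against 9.64 in the chimera. Broader neuronal genes, chosen after their values were seen, were higher without passing the rule. Tubb3, the neuronal tubulin, had 726 CPM in WC and 834 in WCS against 284 in the chimera, 2.55-fold (2.49 to 2.62) and 2.94-fold (2.86 to 3.01) higher. The RNA-binding protein gene Elavl3 had 177 CPM in WC and 178 in WCS against 135 in the chimera.

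For adhesion and guidance, 4 of 38 measured genes were higher in both mutants, against 0.425% of all measured genes. In WCS 5 were higher and 2 lower, against 0.592% and 0.753% of all. The list had a WC median of 0.66 and a WCS median of 0.48. Robo3, a guidance receptor of commissural axons, had 35.7 CPM in WC and 31.0 in WCS against 2.0 in the chimera, 17.9-fold (13.6 to 24.0) and 15.5-fold (11.8 to 20.9) higher. In NeuroD2 it had 11.5 CPM, against 1.14 in GFP, so the mutants were above NeuroD2. Nxph4, a neurexin ligand, had 31.2 CPM in WC and 38.2 in WCS against 5.88 in the chimera. Gpm6a and Gpm6b, membrane glycoproteins of neurons, were 6.30-fold and 4.75-fold higher in WC and 8.43-fold and 6.81-fold higher in WCS.

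Secretory and synaptic genes had 3 of 40 measured members higher in both mutants, against 0.425% of all measured genes. Chgb, a granin of dense-core granules, had 223 CPM in WC and 231 in WCS against 36.2 in the chimera. Pcsk2, a prohormone convertase, had 13.1 and 19.4 CPM in WC and WCS against 1.77 in the chimera, and Syt1, the calcium sensor of synaptic vesicles, had 15.9 and 22.1 against 3.50. These were the 3 called, and the list had a WC median of 0.90 and a WCS median of 0.89.

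Slc17a6, the vesicular glutamate transporter, had 54.6 CPM in WC and 60.7 in WCS against 8.14 in the chimera and was the only one of 14 neurotransmitter genes called in both mutants, in a list with medians of 0.07 and -0.11. The 43 measured channel and receptor genes had 1 member higher in both mutants, a WC median of 0.67 and a WCS median of 0.63.

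Among the highest genes that belong to no neuronal list, Lmo2, a LIM-only adaptor protein, had 29.1 CPM in WC and 36.7 in WCS against 2.94 in the chimera. Hs3st5, a heparan sulfate sulfotransferase, had 5.17 and 5.88 CPM in WC and WCS against 0.226 in the chimera. Fstl5, a secreted follistatin-like protein, had 122 counts in WC and 162 in WCS against 0 in the chimera, at least 34.6-fold and 48.7-fold higher, though in WC it stayed below the 5 CPM of the rule.

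Growth genes subject to imprinting carried large differences. H19, a non-coding RNA, had 19.2 CPM in WC and 13.8 in WCS against 674 in the chimera, 35.2-fold (32.4 to 38.2) and 48.9-fold (44.3 to 54.0) lower. Igf2, a growth factor beside it, had 95 CPM in WC and 54.8 in WCS against 1250 in the chimera, 13.2-fold (12.7 to 13.7) and 22.8-fold (21.7 to 24.0) lower. GFP had 119 CPM of H19 and 184 of Igf2 and MyoD had 892 and 3540, so both mutants were below GFP in both genes. Reads of H19 and of its microRNA Mir675, and those of Igf2 and its antisense gene, cannot be told apart without a stated strand setting.

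Igfbp5, which binds insulin-like growth factors, had 399 CPM in WC and 269 in WCS against 2306 in the chimera. Grb10, an adaptor of insulin signalling, was higher, with 26.2 CPM in WC and 25.7 in WCS against 3.88 in the chimera. The list of imprinted growth genes also held Igfbp5, which is not itself imprinted. Of the list's 18 measured members, 3 (H19, Igf2 and Igfbp5) were lower and 1 (Grb10) was higher in both mutants.

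Cell cycle genes differed mostly by small amounts. Cdkn1a, the p21 inhibitor that accompanies exit from the cycle in muscle, had 8.99 CPM in WC and 5.98 in WCS against 59.9 in the chimera, 6.66-fold (5.86 to 7.59) and 10.013-fold (8.56 to 11.8) lower, with 187 in MyoD and 8.51 in GFP. None of 30 replication and mitosis genes was called, yet 29 in WC and 28 in WCS lay below 0, with medians of -0.43 and -0.54. Mki67, a marker of cycling cells chosen after its values were seen, had 233 CPM in WC and 204 in WCS against 314 in the chimera.

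Pluripotency genes had 2 of 22 measured members higher in both mutants, against 0.425% of all measured genes, and none lower. The list's WC median was 0.44 and its WCS median 0.29. In WC 18 members lay above 0 and 4 below, and in WCS 16 and 6. Klf4 was among those below, at 0.256 of the chimera's level in WC and 0.160 in WCS, without being called. For WCS over chimera at MOI 100 the list's median was 0.09, with 12 members above 0, 10 below and none called. Gdf3, a TGF-beta ligand of pluripotent cells, had 69.0 CPM in WC and 72.9 in WCS against 13.2 in the chimera. Lefty1, an inhibitor of Nodal signalling, had 13.0 and 9.71 CPM in WC and WCS against 1.88 in the chimera. Pou5f1 (Oct4) had 304 CPM in WC and 278 in WCS against 167 in the chimera, 1.83-fold (1.76 to 1.89) and 1.67-fold (1.61 to 1.73) higher, while MyoD had 587, NeuroD2 109 and GFP 1227. Sox2 differed less, with 181 CPM in WC and 205 in WCS against 158 in the chimera. In bulk RNA, fewer cells of a type and less RNA per cell cannot be told apart, here and in every group above.

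The binding partners of these factors differed little in level. Of 16 measured E-protein, Id, Pbx and Meis genes, none was called in either mutant, and all lay between -0.24 and 0.97 on the log2 scale, with a WC median of 0.18 and a WCS median of 0.26. Tcf3, an E-protein, had 282 CPM in WC and 290 in WCS against 229 in the chimera. Meis1 had 29.7 CPM in WC and 29.4 in WCS against 26.0 in the chimera. Id2, an inhibitor of bHLH factors, differed most, with 52.6 CPM in WC and 63.0 in WCS against 31.8 in the chimera.

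Markers of other cell types had single called members. Pdgfra, a receptor of mesenchymal and glial progenitor cells, had 5.23 CPM in WC and 4.04 in WCS against 49.1 in the chimera, 9.39-fold (7.97 to 11.1) and 12.2-fold (10.1 to 14.8) lower, with 1.69 in MyoD and 7.69 in NeuroD2. It was the only one of 24 fibroblast and matrix genes called in both. Myh6, the cardiac heavy chain that shares a locus with a near-identical gene, had 0.706 and 0.272 CPM in WC and WCS against 8.06 in the chimera, and it was 1 of 13 cardiac and smooth muscle genes. Erbb3, a neuregulin receptor of neural crest and Schwann cells, had 2.21 CPM in WC and 1.22 in WCS against 12.2 in the chimera, with 134 in MyoD.

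In the Notch and progenitor list, Dll3, a Notch ligand, had 44.9 CPM in WC and 45.7 in WCS against 9.72 in the chimera, and Heyl, a Notch target, had 0.963 and 0.883 against 7.61. Eomes, a factor of mesendoderm and of cortical progenitors, had 10.7 CPM in WC and 6.86 in WCS against 1.21 in the chimera. No interferon, stress or immediate early gene was called, of 14 measured in each of these 2 lists.

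The medians of these smaller lists lay nearer to 0 than those of the sarcomere and homeodomain genes. Notch and progenitor genes had 0.30 for WC and 0.49 for WCS over 26 genes. Mesoderm and endoderm genes, with Eomes and Lhx1 higher in both of the mutants, had 0.39 and 0.01 over 10 genes. Glia and neural crest genes had 0.49 and 0.16 over 12 genes, of which Erbb3 was the 1 called.

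Fibroblast and matrix genes had -0.22 for WC and -0.33 for WCS, cardiac and smooth muscle genes -0.22 and -0.52, imprinted growth genes -0.71 and -0.95, and cell cycle exit genes -0.31 and -0.29. Interferon and stress genes had -0.22 and -0.19, and immediate early genes 0.01 and -0.07. RNAs of tailless or short classes had 0.67 and 0.61 over 11 genes, against -0.01 for WCS over chimera at MOI 100, and Rn7s6 was the 1 called.

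The same genes were then read in the MOI 100 pair, which shares no library with the comparison that chose them. Over all measured genes, 190 were called lower (1.22%) and 91 higher (0.585%) in WCS at MOI 100 than in the chimera at MOI 100. Of the 85 genes lower in both mutants, 74 (87.1%) were called lower there and 84 lay below 0, with a median log2 ratio of -3.59. Of the 66 higher genes, 29 (43.9%) were called higher and 63 lay above 0, with a median of 1.75, against -0.03 for all genes.

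Single genes followed the same order. Myog had 0.157 CPM in WCS at MOI 100 against 197 in the chimera at MOI 100, 1257-fold lower (538 to 3872). Musk had 0.0940 CPM against 86.4. Dcx had 546 CPM in WCS at MOI 100 against 195 in the chimera at MOI 100, 2.80-fold higher (2.72 to 2.89), a smaller ratio than without the MOI label, and both libraries held more Dcx than their counterparts. Scrt1 had 46.5 CPM in WCS at MOI 100 against 10.1 in the chimera at MOI 100.

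**Figure D3:**
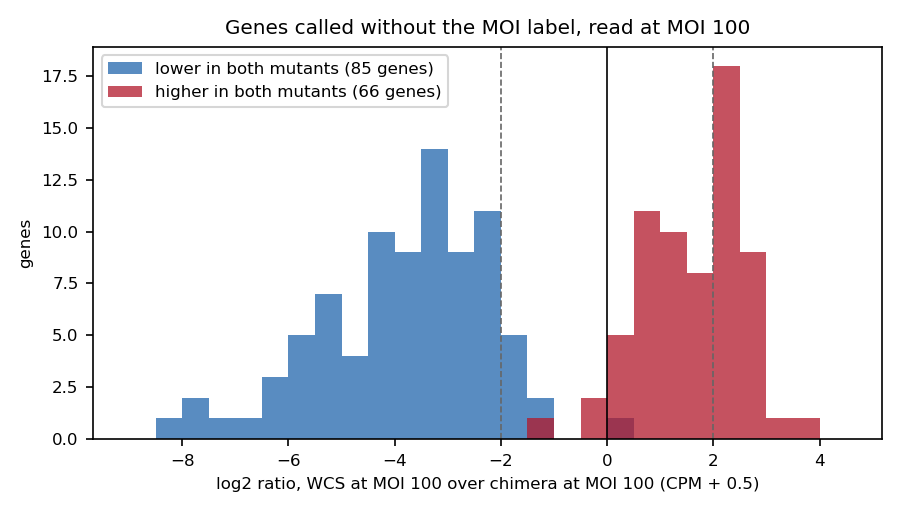
Histogram of the log2 ratio, WCS at MOI 100 over chimera at MOI 100, for the 85 genes lower (blue) and the 66 genes higher (red) in both mutants without the MOI label; the vertical axis counts genes and the dashed lines mark 4-fold. The blue bars lie below 0 for 84 genes, with a median of -3.59, and the red bars above 0 for 63 genes, with a median of 1.75.

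The parent factors gave a second reading, from libraries that also took no part in the choice. MyoD had 428 genes called higher than GFP (2.75%) and 143 lower (0.92%), and NeuroD2 had 680 higher (4.37%) and 249 lower (1.6%). Of the 85 genes lower in both mutants, 62 (72.9%) were called higher in MyoD than in GFP and 7 (8.24%) in NeuroD2, with medians of 5.73 and 0.27. Of the 66 higher genes, 4 (6.06%) were called higher in MyoD and 43 (65.2%) in NeuroD2, with medians of -0.14 and 3.30. Called lower than GFP were 3 (4.55%) of these 66 in MyoD and 10 (15.2%) in NeuroD2. Among the 85, 1 (1.18%) was called lower than GFP in MyoD and 5 (5.88%) in NeuroD2. These contrasts with MyoD and NeuroD2 share the GFP library.

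**Figure D4:**
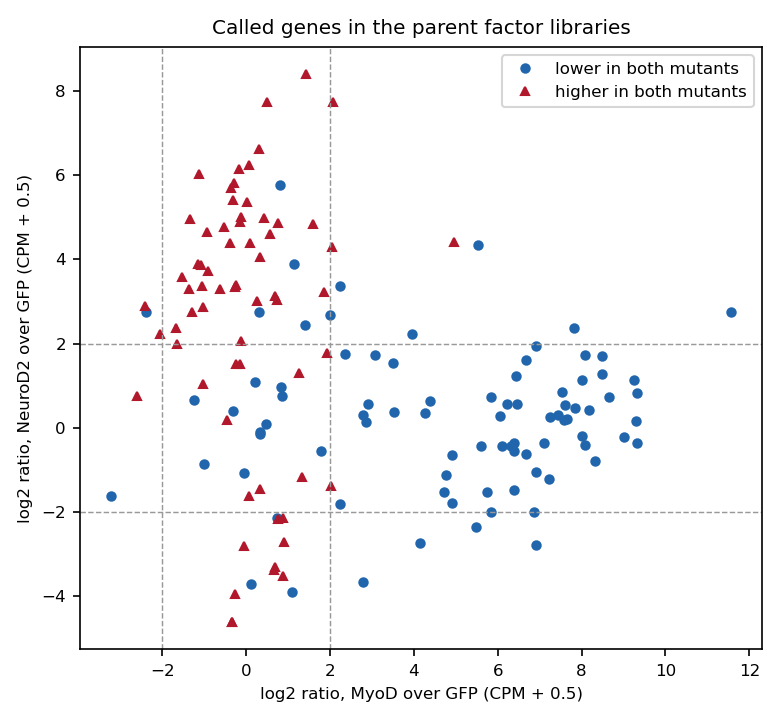
Log2 ratio of MyoD over GFP (horizontal) against that of NeuroD2 over GFP (vertical) for the genes lower (blue circles) and higher (red triangles) in both mutants; dashed lines mark 4-fold. Most lower genes lie to the right, with a median of 5.73 for MyoD, and most higher genes lie upward, with a median of 3.30 for NeuroD2.

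By class, 60 of the 85 lower genes were called higher in MyoD but not in NeuroD2, 2 in both, 5 in NeuroD2 only and 18 in neither. The 2 in both were Igfbp5 and Myh3, and the 5 in NeuroD2 only were AI593442, Heyl, Lrrc10b, Tmem132c and Vipr1. Of the 66 higher genes, 40 were called higher in NeuroD2 but not in MyoD, 3 in both (Ache, Cbln4 and Onecut2), 1 in MyoD only (Grb10) and 22 in neither.

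The chimera, WC and WCS libraries chose these genes, so their levels against GFP are a description only. The chimera had 337 genes called higher than GFP (2.17%) and 112 lower (0.72%), and 73 of the 85 lower genes were among the 337, which the choice of the 85 favours. With both mutants read against GFP, 47 of the 85 lay within 2-fold of GFP, 9 were at least 2-fold above it, 14 at least 2-fold below it and 15 were mixed. Of the 66 higher genes, 53 were at least 2-fold above GFP in both mutants, 11 within 2-fold and 2 mixed.

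The 18 lower genes that neither parent raised over GFP by the rule included several of the lowest. Evi2a, a gene in an intron of Nf1, had 0.0642 CPM in WC and 0 in WCS against 12 in the chimera, lower by 187-fold for WC (51.4 to 1553) and by at least 118-fold for WCS. MyoD had 0.192 CPM of it, NeuroD2 0.0349 and GFP 0, while WCS and chimera at MOI 100 had 0.157 and 23.5. It was thus high in both chimera libraries and near 0 in the other 6. Evi2 lies at the same locus and had nearly the same values, so their reads cannot be told apart.

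Fxyd7, a regulator of the sodium pump known from brain, had 0 CPM in WC and 0.0340 in WCS against 8.97 in the chimera, and 0.219 in WCS at MOI 100 against 12.8 in the chimera at MOI 100. MyoD had 0.0384 CPM, NeuroD2 0.384 and GFP 0.170. Among genes chosen after their values were seen, Fbxo40, a muscle ubiquitin ligase component, had 0.321 CPM in WC and 0.238 in WCS against 8.25 in the chimera, and MyoD had 0.384. Tbx18, a T-box factor of mesoderm, had 0.385 and 0.136 CPM in WC and WCS against 5.91 in the chimera, with 0.157 in WCS at MOI 100 and 18.3 in the chimera at MOI 100.

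**Figure D5:**
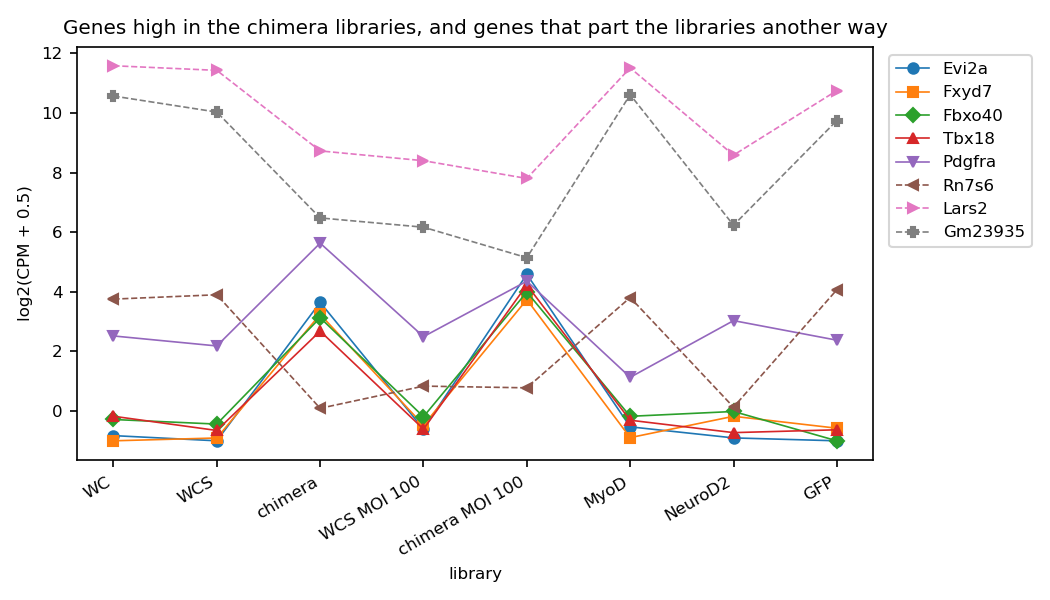
Level in each library, as log2(CPM + 0.5), of 5 genes lower in both mutants that neither MyoD nor NeuroD2 raised (solid) and of 3 genes that part the libraries another way (dashed); lines join the values of 1 gene and the libraries have no order. The solid lines peak in the chimera with and without the MOI 100 label, while Rn7s6, Lars2 and Gm23935 are low in the chimera, NeuroD2 and both MOI 100 libraries.

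The higher genes included 10 whose level in the chimera was at least 4-fold under that in GFP, of which 2 were protein-coding, 6 were annotated as other classes and 2 had no symbol or annotated class. Their summed level was 4997 CPM in WC and 4144 in WCS against 539 in the chimera, and in the other libraries 434 in WCS at MOI 100, 275 in the chimera at MOI 100, 4912 in MyoD, 485 in NeuroD2 and 2916 in GFP. Lars2, a mitochondrial leucyl-tRNA synthetase gene, made up most of it, with 3073 CPM in WC and 2760 in WCS against 424 in the chimera. At MOI 100 it had 337 CPM in WCS and 223 in the chimera. Rn7s6, shown above, and Lefty1 were among the 10.

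WC and WCS themselves were close for most of these genes, with a few exceptions. Ttn, the giant sarcomere protein titin, had 7.03 CPM in WC and 1.39 in WCS, 5.05-fold higher in WC (3.60 to 7.23), both far under the 209 CPM of the chimera. Smoc2, a matrix protein, had 2.82 CPM in WC and 0.238 in WCS, 11.9-fold higher in WC (5.53 to 30.4), against 11.4 in the chimera. Jsrp1, a protein of the sarcoplasmic reticulum, had 6.58 CPM in WC and 1.60 in WCS, 4.12-fold higher in WC (2.99 to 5.79), against 20.8 in the chimera.

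Rpl27-ps2, a processed pseudogene, had 0.160 CPM in WC and 15.4 in WCS, 95.7-fold lower in WC (40.7 to 296), with 0.301 in the chimera and 10.1 in NeuroD2. Its reads can come from other copies of the same ribosomal protein gene, so its level is uncertain. These 4 genes had the largest differences between the mutants among genes called in either, and no replicate is at hand to set them against.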

How the data were processed

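RNA-seq gene counts of the 8 libraries were used, the 3 compared and the 5 others for reading. The authors deposited raw counts of reads per Ensembl gene, whole numbers for 37558 genes. Libraries were oligo-dT selected and sequenced on an Illumina HiSeq, per the labels' protocols. CASAVA 1.8.2, TopHat2 2.0.8 and the mm9 build are named in the submitters' processing notes. How reads were assigned to genes, and whether by strand, is not given in the sources used here. Overlapping and antisense genes and paralogs are therefore uncertain. Symbols came from a newer annotation on GRCm38 by identifier, for 32850 genes (87.5%). Genes with no symbol held 1.24% to 1.53% of counts and were kept.

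Counts were scaled by TMM over the 8 libraries in edgeR 4.0.16 to CPM, with a pseudocount of 0.5 CPM. A measured gene reached 1 CPM in some library. With 1 library a group there was no test. A called gene was at least 4-fold apart with 5 CPM or more in the higher library. Where a count was 0, the floor of 3 counts in that library took its place and the ratio is printed as an at-least value. Intervals and floors cover counting error only, since PCR reads are not independent molecules. The steps were run on data simulated with planted changes and counting error only, so the spread between cultures was not tested.

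The libraries and the 28 gene lists were chosen with earlier results of these data known. Of 709 list genes, 685 matched, and the mitochondrial transcripts were not analysed here. Named genes were Myod1, Neurod2, the markers Myog, Musk, Dcx and Scrt1, the 12 highest and 12 lowest by the less extreme end of the interval, up to 4 called members per list, all members of 5 lists (myogenic regulators, neuromuscular synapse, neuronal bHLH, partner proteins, pluripotency), and the 4 genes furthest apart between WC and WCS, with unnamed gene models skipped. Some genes that this rule names are not reported here. Any other gene was picked with its values known, as the text says. The alternatives tried were other scalings (DESeq2 1.42.0 size factors, total counts, TMM over 3 libraries), no minimum level, a pseudocount of 2, an 8-fold rule, 20 CPM, and protein-coding genes only. Software was matplotlib 3.10.9, scipy 1.17.1, pandas 2.3.3 and numpy 2.4.6 in Python 3.11.15, and R 4.3.3.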

Additional observations from a re-analysis of the deposited data

Results flagged for a closer look

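Among the genes called in both mutants, 4 lay on the opposite side of 0 in WCS at MOI 100 over the chimera at MOI 100, and the difference between the MOI labels was not tested. Grb10, an adaptor of insulin signalling, was higher in both mutants (2.61 in WC and 2.58 in WCS on the log2 scale) and had -0.41 at MOI 100. Grm2, a metabotropic glutamate receptor, was also higher in both (2.09 and 2.20) and had -1.09 at MOI 100, from 3.04 CPM in WCS at MOI 100 against 7.01 in the chimera at MOI 100. Lefty1, an inhibitor of Nodal signalling, had 2.5 in WC and 2.1 in WCS, and -0.23 at MOI 100. Tmem132c, a membrane protein gene, was lower in both mutants (-2.64 and -2.72) and had 0.25 at MOI 100, where both libraries had over 20 CPM.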

How the results depend on the processing

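No paired analysis was possible because each group has 1 library, and for the same reason no replicate could be left out. Counts are given in the order higher in WC, lower in WC, higher in WCS, lower in WCS, higher in both and lower in both, and were 73, 88, 92, 117, 66 and 85 as reported. With a pseudocount of 2 CPM they were 38, 55, 50, 81, 37 and 53. With an 8-fold rule they were 13, 43, 21, 64, 13 and 43, and asking for 20 CPM where the gene was higher gave 37, 37, 53, 50, 37 and 35. These rules ask for more by construction. Under DESeq2 size factors (67, 87, 89, 116, 61 and 84), total counts (68, 88, 88, 118, 61 and 85), TMM over the 3 libraries (73, 87, 92, 116, 66 and 84), no minimum level (90, 121, 115, 161, 80 and 111) and protein-coding genes only, added after seeing the data (61, 83, 76, 108, 54 and 80), each stayed within 1.5 times. With a pseudocount of 2, 21 of the 54 list medians moved by over 1.5 times. Besides those in the text, these included calcium handling and metabolism at -0.61 in WC, adhesion and guidance at 0.33 in WC and neuronal bHLH genes at 0.50 in WCS. The median of immediate early genes in WC, near 0, changed sign to -0.01. The other scalings move every gene alike, so they bear on single ratios only through that common shift, which was at most 0.02 in size on the log2 scale. Depth limits genes of a few counts in the chimera, such as Neurog2, and the single library of each group leaves the spread between cultures unknown.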
